A study of Vitis vinifera with 15 samples.

Results

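A set of 10 rows of the expression table, listed as chitinases and beta-1,3-glucanases, is described here out of 29970 annotated grapevine genes. They are 5 rows listed as class IV chitinases with neighbouring identifiers on chromosome 5 (Vv05s0094g00220, Vv05s0094g00320, Vv05s0094g00330, Vv05s0094g00340 and Vv05s0094g00350), 3 rows listed as class III chitinases on chromosome 16 (Vv16s0050g02210, Vv16s0050g02220 and Vv16s0050g02230) and 2 rows listed as beta-1,3-glucanases on chromosome 8 (Vv08s0007g06040 and Vv08s0007g06060). All 10 were in the table. The list was drawn up with the levels of these genes in these libraries known, so their levels and fold changes are a description and carry no p-value. The annotation used names 6 of the 10, and Vv05s0094g00330, Vv05s0094g00350, Vv16s0050g02230 and Vv08s0007g06040 stand in their groups only by the list and by their identifiers.

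The leaves came from the cultivar “Gaglioppo”, grafted onto 1103 Paulsen (GAG-1103P), Kober 5BB (GAG-KOB), 3309 Couderc (GAG-3309C), 41B (GAG-41B) or 17-37 Mgt (GAG-17-37). The scion was the same clone in every combination, the vines were 3 years old and stood in one watered vineyard, each library pooled 2 leaves from each of 3 plants, and each combination had 3 libraries, A, B and C. GAG-1103P served as the reference for the fold changes below, and no ungrafted “Gaglioppo” was among the libraries. Combinations stood in adjacent blocks, so rootstock and block cannot be told apart. The labels call the leaves non-senescing. The leaf markers, the photosystem subunits PSAF (Vv00s0125g00280) and PsbO (Vv00s0207g00210), were among the abundant genes of every library, with 355 to 1017 FPKM and 939 to 1727 FPKM, respectively.

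Chitinases cut chitin, a polymer of fungal cell walls that plants do not make, and beta-1,3-glucanases cut beta-1,3-glucans, which occur in the walls of fungi and oomycetes and in the callose of the plant itself. Both are classic pathogenesis-related proteins of leaves, and plants make several classes of chitinase that differ in fold and sequence. In grapevine, class IV chitinases are also known as abundant soluble proteins of ripe berries. Callose turnover and cell wall growth use other beta-1,3-glucanases, so that not every member of that family belongs to defence.

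Levels are in FPKM, fragments per kilobase of exon, as the authors calculated them with a geometric normalization across libraries. They are therefore not simply relative to the mapped fragments of each library. Division by exon length allows levels of different genes to be compared. A fold change is a difference on the log2(FPKM + 0.1) scale with its standard error (SE) from a limma fit over the 15 libraries. Of the 10 rows, 8 averaged 0.1 FPKM or more over the libraries and entered the fit. In bulk leaves, fewer cells that express a gene and less RNA per cell cannot be told apart. Close copies in tandem can exchange reads, and the library kit kept no strand, so a row with a close or antisense copy is uncertain by an amount that was not tested.

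Vv05s0094g00340, annotated as a class IV chitinase, was by far the most abundant row of the list. Its FPKM values were 426, 376 and 383 for GAG-1103P, 1389, 1299 and 1299 for GAG-KOB, 2332, 2165 and 2086 for GAG-3309C, 1858, 1678 and 1702 for GAG-41B, and 1077, 1043 and 984 for GAG-17-37. No neighbours in the order GAG-3309C, GAG-41B, GAG-KOB, GAG-17-37, GAG-1103P overlapped. Among all genes of a library it ranked between 51 and 668. Against GAG-1103P its log2 fold change was 2.47 (GAG-3309C), 2.14 (GAG-41B), 1.75 (GAG-KOB) and 1.39 (GAG-17-37), each with an SE of 0.07.

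Vv05s0094g00220, the class IV row with the widest range, took another order. It measured 4.09, 4.46 and 4.26 FPKM for GAG-1103P, 44.5, 56.2 and 54.4 for GAG-KOB, 17.2, 17.5 and 17.5 for GAG-3309C, 116, 137 and 144 for GAG-41B, and 17.3, 17.0 and 16.1 for GAG-17-37. GAG-41B stood highest and GAG-KOB next, while GAG-3309C and GAG-17-37 overlapped. The log2 fold change from GAG-1103P was 4.92 in GAG-41B, the largest of the list, 3.56 in GAG-KOB, 2.0 in GAG-3309C and 1.95 in GAG-17-37 (SE 0.09).

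Vv05s0094g00320, also annotated as class IV, had 5.47, 5.59 and 5.39 FPKM for GAG-1103P, 26.2, 25 and 27.5 for GAG-KOB, 19.5, 14.3 and 19.0 for GAG-3309C, 76.3, 68.2 and 74.8 for GAG-41B, and 11.3, 14.2 and 12.9 for GAG-17-37. The order was that of Vv05s0094g00220, and no neighbours in it overlapped, although library B of GAG-3309C lay only 0.0779 FPKM above the highest GAG-17-37 library. Its log2 fold change was 3.71 in GAG-41B, 2.24 in GAG-KOB, 1.65 in GAG-3309C and 1.2 in GAG-17-37 (SE 0.11).

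The remaining class IV rows were close to silent and were not tested. Vv05s0094g00330 was listed at 0 in 14 libraries and at 0.0900 FPKM in library A of GAG-3309C. Vv05s0094g00350 was above 0 in 10 libraries and reached 0.291 FPKM in library A of GAG-KOB. In the libraries B and C its values were whole multiples of a common step, at most 2 steps, as if each rested on 1 or 2 reads. Both stand beside Vv05s0094g00340 in identifier order, so the abundance of that row was not shared by its immediate neighbours among the listed rows.

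**Figure D1:**
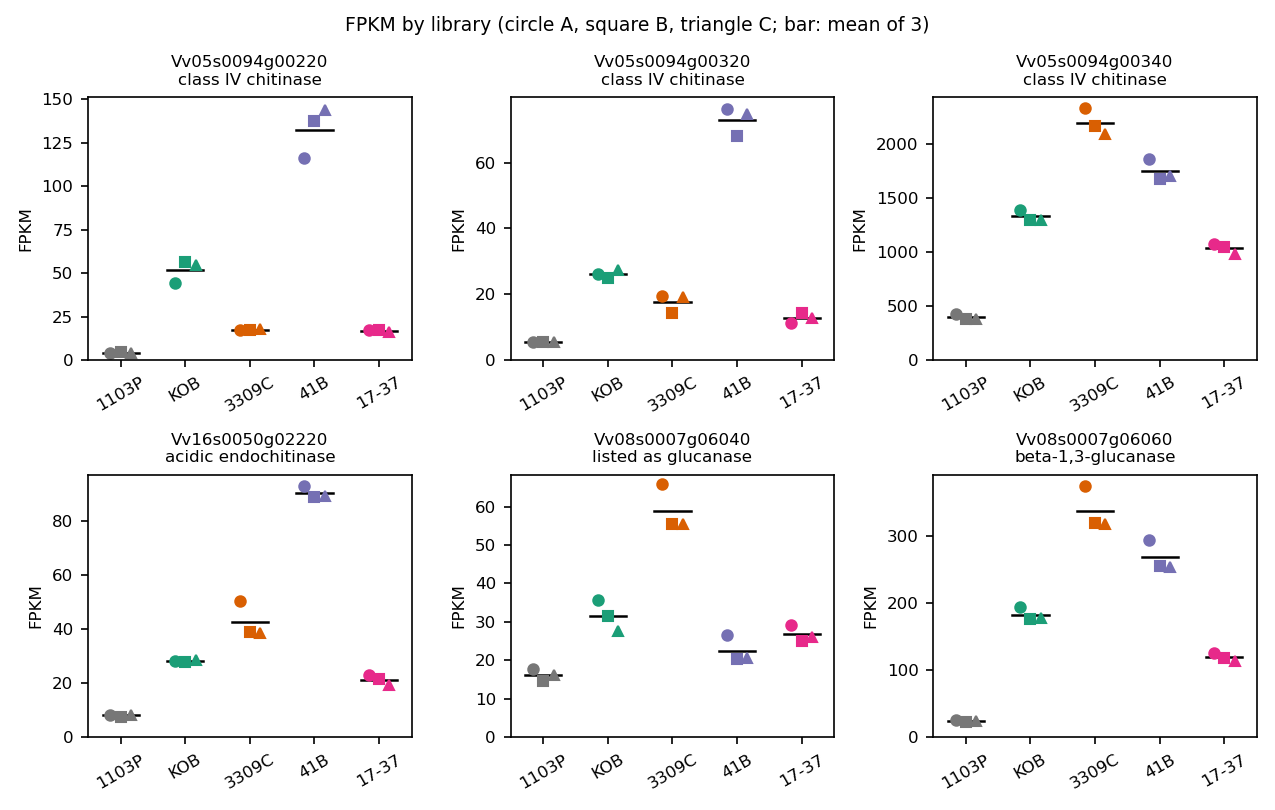
FPKM (linear axes from 0) of the 6 listed genes with at least 1 FPKM in every library, by graft combination, with 1 point per library (circle A, square B, triangle C) and a bar at the mean of 3. Vv05s0094g00340, Vv08s0007g06040 and Vv08s0007g06060 were highest in GAG-3309C, while Vv05s0094g00220, Vv05s0094g00320 and Vv16s0050g02220 were highest in GAG-41B.

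Among the class III rows, Vv16s0050g02220, annotated as the acidic endochitinase CHIB1, was the only one at more than 2 FPKM. Its values were 8.38, 7.59 and 8.22 FPKM for GAG-1103P, 28.2, 27.7 and 28.6 for GAG-KOB, 50.3, 38.8 and 38.6 for GAG-3309C, 92.9, 89.1 and 89.1 for GAG-41B, and 23.0, 21.4 and 19.4 for GAG-17-37. All neighbours in the order GAG-41B, GAG-3309C, GAG-KOB, GAG-17-37, GAG-1103P were apart. The log2 fold changes from GAG-1103P were 3.47, 2.38, 1.79 and 1.39 in that order (SE 0.09).

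Vv16s0050g02210, annotated as chitinase III, ran the other way and was low throughout. It measured 1.74, 1.29 and 0.858 FPKM for GAG-1103P, 0.163, 0.429 and 0.211 for GAG-KOB, 0.581, 0.391 and 0.196 for GAG-3309C, 0.200, 0.0911 and 0.267 for GAG-41B, and 0.308, 0.332 and 0.181 for GAG-17-37. The 3 libraries of GAG-1103P were above all 12 others, and neighbours among the 4 other combinations overlapped. The log2 fold change was −2.29 in GAG-41B, −1.94 in GAG-KOB, −1.88 in GAG-17-37 and −1.55 in GAG-3309C (SE 0.40). Its size depended on the settings. Over other pseudocounts, scalings and fits it ran from −2.80 to −0.94 in GAG-41B and from −2.29 to −0.85 in GAG-KOB. The ranges were −2.19 to −0.84 in GAG-17-37 and −1.78 to −0.72 in GAG-3309C. The FPKM values rest on few reads. In the libraries B and C all 10 values were whole multiples, within 0.05, of a step shared with Vv16s0050g02230. At 1 read per step they were 21 and 13 reads in GAG-1103P and 1 to 7 reads elsewhere.

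Vv16s0050g02230 was listed at 0 in the 3 libraries of GAG-1103P and in library B of GAG-17-37. It measured 0.311, 0.547 and 0.534 FPKM for GAG-41B, 0.172, 0.130 and 0.0654 for GAG-3309C, 0.0850, 0.184 and 0.0704 for GAG-KOB, and 0.0799 and 0.181 for libraries A and C of GAG-17-37. GAG-41B was above all other libraries, with 6 reads by the same step in each of libraries B and C, against 3 at most in libraries B and C of the others. Since GAG-1103P was listed at 0, no fold change from it is given. GAG-1103P was thus the lowest combination for Vv16s0050g02220 and Vv16s0050g02230 and the highest for Vv16s0050g02210, although the 3 identifiers are neighbours.

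The glucanase Vv08s0007g06060 measured 26.3, 23.1 and 24.2 FPKM for GAG-1103P, 194, 176 and 178 for GAG-KOB, 374, 319 and 318 for GAG-3309C, 295, 256 and 254 for GAG-41B, and 126, 117 and 114 for GAG-17-37. Its order was that of the class IV chitinase Vv05s0094g00340, again with no overlap between neighbours. Its log2 fold changes were larger, at 3.77 in GAG-3309C, 3.44 in GAG-41B, 2.89 in GAG-KOB and 2.28 in GAG-17-37 (SE 0.08).

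Vv08s0007g06040, the other listed glucanase row, had the narrowest range of means among the rows above 1 FPKM. It had 17.8, 14.6 and 16.1 FPKM for GAG-1103P, 35.6, 31.4 and 27.7 for GAG-KOB, 65.7, 55.5 and 55.4 for GAG-3309C, 26.5, 20.2 and 20.6 for GAG-41B, and 29.3, 25 and 25.9 for GAG-17-37. GAG-3309C was above and GAG-1103P below all others, while GAG-KOB overlapped GAG-17-37 and GAG-17-37 overlapped GAG-41B. The log2 fold change was 1.86 in GAG-3309C, 0.96 in GAG-KOB, 0.73 in GAG-17-37 and 0.47 in GAG-41B (SE 0.13). With all libraries scaled to the same total the difference in GAG-41B was 0.07.

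**Figure D2:**
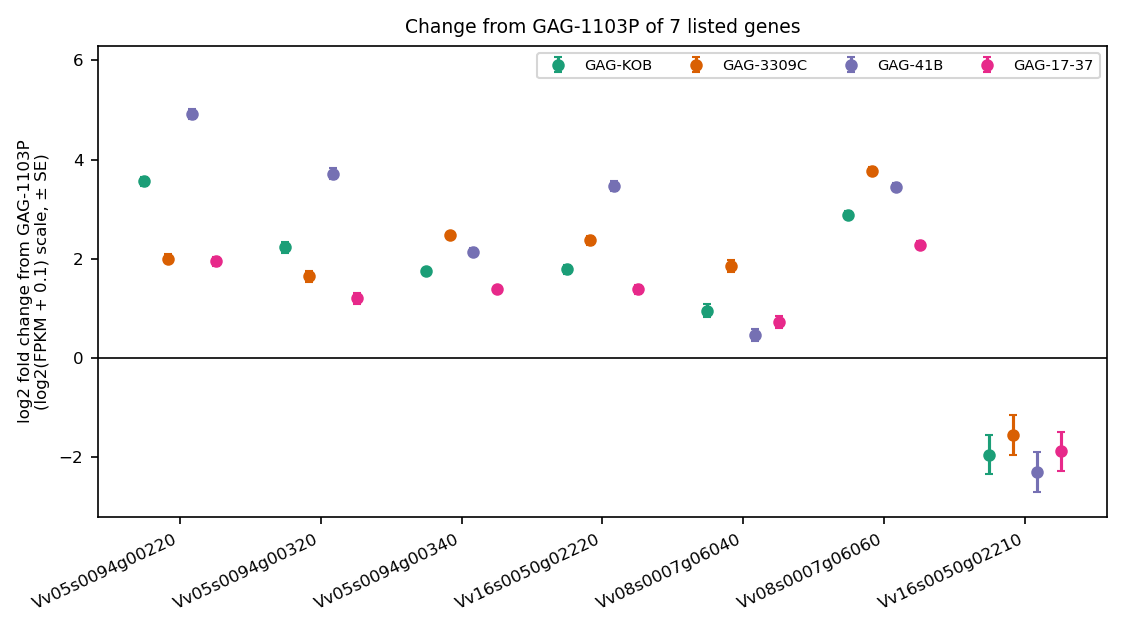
Log2 fold change from GAG-1103P (log2(FPKM + 0.1) scale, bars ± SE) of 7 listed genes in the 4 other combinations. Vv16s0050g02210 lay below 0 in all 4, between −1.55 and −2.29, and the other 6 genes lay above 0 in all 4, from 0.47 to 4.92.

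Counted over the 8 rows that entered the fit, the 3 libraries of GAG-KOB were all above those of GAG-1103P for 7 rows and all below for 1, where 30.8% and 30.5% of the 21364 genes tested did so. The 7 rows include Vv16s0050g02230, with its few reads. The same counts, 7 and 1, were found for GAG-3309C (25.7% and 26.0% of all genes) and for GAG-41B (36.3% and 35.9%). For GAG-17-37 they were 6 and 1 (25.3% and 23.2%). With libraries scaled in other ways, the rows without overlap in either direction for GAG-41B fell from 8 to 7 at the lowest. Since the rows were listed with these levels known, nothing is read from the difference to the background. Leaving out Vv16s0050g02230, the median log2 fold change of the 7 rows was 3.44 (GAG-41B), 2.0 (GAG-3309C), 1.79 (GAG-KOB) and 1.39 (GAG-17-37), beside a median of 0.00 over all genes tested in each of these comparisons. These 4 comparisons share the GAG-1103P libraries. A further 15 genes, picked by the study on these libraries, are annotated with senescence. Against GAG-1103P, limma called 9 of the 15 higher and 6 lower for GAG-41B (34.4% and 34.4% of all genes tested). The counts were likewise 9 and 6 for GAG-KOB (26.9% and 25.7%). They were 8 and 4 for GAG-3309C (22.0% and 21.1%), and 7 and 4 for GAG-17-37 (18.6% and 15.6%). The part of these 15 genes in the changes of the listed rows was not tested.

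Among the 4 combinations other than GAG-1103P, the rows split by where they peaked. Vv05s0094g00340, Vv08s0007g06040 and Vv08s0007g06060 were lower in GAG-41B than in GAG-3309C, by −0.33 (SE 0.07), −1.39 (SE 0.13) and −0.33 (SE 0.08) on the log2 scale. Vv05s0094g00220, Vv05s0094g00320 and Vv16s0050g02220 were higher in GAG-41B, by 2.92 (SE 0.09), 2.06 (SE 0.11) and 1.10 (SE 0.09). With Vv16s0050g02230, libraries did not overlap for 4 rows higher in GAG-41B and 3 rows lower, where 33.0% and 32.3% of all genes tested did so. GAG-41B libraries had the largest FPKM totals, 2208240 to 2221130 against 1558970 to 1797630 in the other 12. Scaling all libraries to the same total moved the median of all genes by −0.46 in this comparison and kept the direction of each of these 7 rows, at 2.44, 1.58, 0.61 and 1.0 for the rows that were higher and −0.81, −1.87 and −0.81 for the rows that were lower.

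Between GAG-41B and GAG-KOB, 6 rows were higher in GAG-41B and 1 lower without overlap (background 31.7% and 28.3%), and the lower row was Vv08s0007g06040. Between GAG-41B and GAG-17-37 they were 6 and 0 (33.7% and 33.1%). GAG-KOB was above GAG-3309C for Vv05s0094g00220 and Vv05s0094g00320 and below it for Vv05s0094g00340, Vv16s0050g02220, Vv08s0007g06040 and Vv08s0007g06060 (23.2% and 21.4%). GAG-KOB and GAG-3309C were each above GAG-17-37 for 5 rows and below it for 0 (23.5% and 23.1%, 13.8% and 16.8%).

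Ratios of 2 genes within a library do not depend on how libraries were scaled. Vv08s0007g06060 stood at 15.3% ± 0.67 of Vv05s0094g00340 in GAG-3309C and 15.4% ± 0.46 in GAG-41B (SD, n = 3), at 13.7% ± 0.23 in GAG-KOB, at 11.5% ± 0.23 in GAG-17-37 and at 6.21% ± 0.085 in GAG-1103P. The ratio overlapped between GAG-3309C and GAG-41B and was lower in all 3 GAG-1103P libraries than in the 12 others. Vv16s0050g02220 was at 2.04% ± 0.091 of Vv05s0094g00340 in GAG-1103P, 1.93% ± 0.20 in GAG-3309C, 2.12% ± 0.083 in GAG-KOB and 2.05% ± 0.082 in GAG-17-37, but at 5.18% ± 0.16 in GAG-41B. The 3 GAG-41B libraries were above the 12 others in this ratio. Vv05s0094g00220 ranged more widely, from 0.795% ± 0.053 of Vv05s0094g00340 in GAG-3309C to 7.64% ± 1.2 in GAG-41B, and Vv08s0007g06040 was at 65.7% ± 2.3 of Vv08s0007g06060 in GAG-1103P and at 8.34% ± 0.59 in GAG-41B.

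Rows near the listed ones were examined within set identifier ranges. The range from Vv16s0050g02210 to Vv16s0050g02230 holds no row that was not listed. Rows just beyond these ranges are not described, so how far a pattern runs along the chromosome was not measured. From Vv05s0094g00200 to Vv05s0094g00360, from Vv16s0050g02210 to Vv16s0050g02230 and from Vv08s0007g06010 to Vv08s0007g06060 the table holds 15 rows that were not listed, of which 9 entered the fit and 6 are annotated as chitinase or glucanase. At an adjusted p (limma, Benjamini-Hochberg over all genes tested) of 0.05 or less, 4 of the 9 rose and 1 fell in GAG-KOB against GAG-1103P (26.9% and 25.7% of all genes), 6 rose and 1 fell in GAG-3309C (22.0% and 21.1%), 6 rose and 0 fell in GAG-41B (34.4% and 34.4%; 0 also at an unadjusted p under 0.05) and 6 rose and 1 fell in GAG-17-37 (18.6% and 15.6%). The annotation was made for genes that the study had picked on these libraries, so that annotated rows are not independent of the result.

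Vv05s0094g00360, a class IV chitinase at the end of the locus on chromosome 5, was the second most abundant row there and was not listed. It measured 1283 ± 27 FPKM in GAG-41B, 437 ± 15 in GAG-KOB, 232 ± 2.2 in GAG-17-37, 223 ± 8.0 in GAG-3309C and 126 ± 1.5 in GAG-1103P (SD, n = 3). It rose in each of the 4 combinations, most in GAG-41B with a log2 fold change of 3.35 (SE 0.04, adjusted p = 1.86e-15 by limma). It was higher in GAG-41B than in GAG-3309C by 2.52 (SE 0.04, adjusted p = 7.08e-14 by limma). The study picked this annotated row by its change from GAG-1103P in these libraries, so the p-values are no independent evidence. Relative to Vv05s0094g00340 in the same library it stood at 10.2% ± 0.88 in GAG-3309C and 73.6% ± 3.1 in GAG-41B. Of the FPKM summed over the 8 class IV rows of the locus, 5 listed and 3 not, Vv05s0094g00340 held 89.2% ± 0.76 in GAG-3309C and 53.8% ± 1.3 in GAG-41B, and Vv05s0094g00360 held 9.10% ± 0.71 and 39.6% ± 0.72. The sum itself was 533 ± 28 FPKM in GAG-1103P, 1304 ± 47 in GAG-17-37, 1858 ± 29 in GAG-KOB, 2459 ± 119 in GAG-3309C and 3245 ± 111 in GAG-41B. The top of this order depended on the scaling. With libraries scaled to the same total the sum was 2743 ± 167 in GAG-3309C and 2590 ± 93 in GAG-41B, and their libraries overlapped.

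The class IV rows Vv05s0094g00200 and Vv05s0094g00260 were lower, at 0.820 to 5.88 FPKM and 1.25 to 11.8 FPKM. The study picked these annotated rows too by their change from GAG-1103P, so their p-values are no independent evidence. Both rose in all 4 combinations, Vv05s0094g00200 most in GAG-41B, by 2.41 (SE 0.18, adjusted p = 6.49e-08 by limma), and Vv05s0094g00260 most in GAG-KOB, by 2.77 (SE 0.19, adjusted p = 8.35e-08 by limma). Among the class IV rows that entered the fit, Vv05s0094g00260 was the one with its highest mean in GAG-KOB. One unannotated row inside the locus, Vv05s0094g00300, measured 59.0 to 121 FPKM and did not share the direction of the chitinases. It is named because of these values, so its p-values are a description and no independent evidence. It fell in GAG-KOB by 0.81 (SE 0.09, adjusted p = 8.43e-06 by limma), in GAG-3309C and in GAG-17-37, and its value in GAG-41B was −0.11 (adjusted p = 0.317 by limma), which became a fall of −0.51 (adjusted p = 9.04e-05 by limma) with libraries scaled to the same total.

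On chromosome 8, 3 further rows are annotated as beta-1,3-glucanases. The study picked all 3 by their change from GAG-1103P in these libraries, so their p-values are no independent evidence. Vv08s0007g06010 and Vv08s0007g06020 had their highest means in GAG-3309C, at 5.46 ± 1.9 and 2.77 ± 1.0 FPKM, and rose there by 2.59 (SE 0.39, adjusted p = 0.000143 by limma) and 2.34 (SE 0.34, adjusted p = 0.000123 by limma). Neither passed the test in GAG-KOB, at 0.79 and 0.66. The call of Vv08s0007g06010 in GAG-17-37, 1.30 with an adjusted p of 0.0206 by limma, was lost in a fit of both combinations alone, with libraries B and C only, and without library C of GAG-1103P or library A or B of GAG-17-37, up to an adjusted p of 0.0919. Vv08s0007g06030, next in identifier order, was highest in GAG-41B instead, at 14 ± 2.2 FPKM, where it rose by 3.0 (SE 0.17, adjusted p = 3.49e-09 by limma). Peaks in GAG-3309C and in GAG-41B therefore occurred within both loci.

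**Figure D3:**
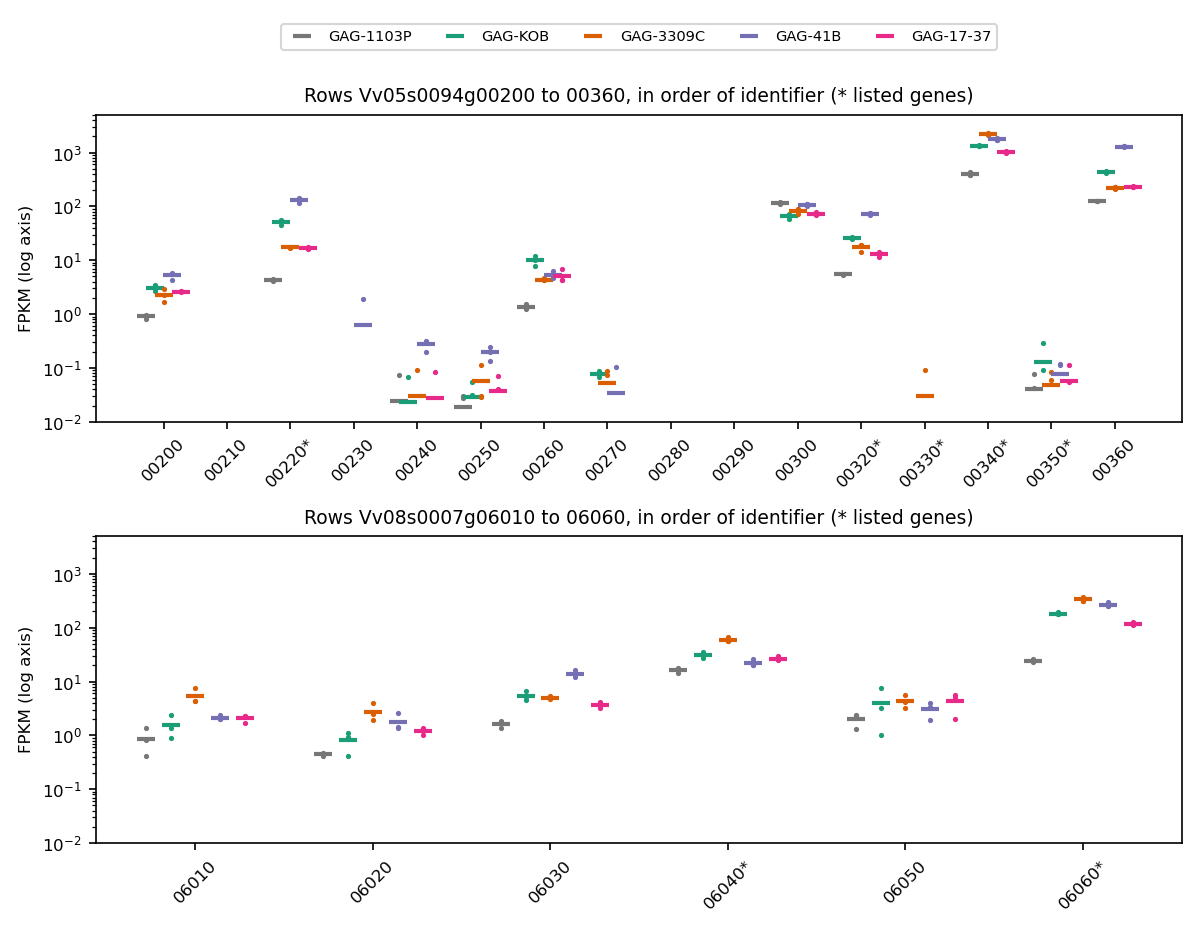
FPKM (log axis) of the rows of the loci on chromosomes 5 and 8, in identifier order, with 1 dot per library above 0 and a bar at the mean of each combination; listed genes carry an asterisk. Vv05s0094g00340 and Vv05s0094g00360 had the highest means of the chromosome 5 rows in every combination. In GAG-1103P, Vv05s0094g00360 (126 FPKM) was close to Vv05s0094g00300 (116 FPKM). The listed rows Vv05s0094g00330 and Vv05s0094g00350 stay under 1 FPKM. Vv05s0094g00230, not listed, is at 0 in 14 libraries and at 1.86 FPKM in library A of GAG-41B.

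The annotation holds 11 chitinases that were not listed, including the 3 class IV rows just described, and all entered the fit. Against GAG-1103P, limma called 11 higher in GAG-41B (34.4% of all genes tested), 11 in GAG-KOB (26.9%), 10 in GAG-17-37 (18.6%) and 7 in GAG-3309C (22.0%). Their medians were 2.38, 1.77, 1.44 and 0.87 on the log2 scale. Lower calls were 0 in all 4, beside 34.4%, 25.7%, 15.6% and 21.1% of all genes in that order. This held also at an unadjusted p under 0.05, since each of the 11 had a fold change above 0 in all 4. The study picked these genes on the same libraries, so the counts are no independent evidence of direction. The 4 with the highest means are Vv05s0094g00360 and the following. Vv14s0081g00030, annotated as pathogenesis-related protein 4, measured 28.7 ± 1.2 FPKM in GAG-1103P and 132 ± 3.0 in GAG-41B. The class V chitinase Vv00s0540g00020 measured 14.7 ± 0.81 and 85.9 ± 1.6 FPKM. Vv15s0046g01570, which carries the same CHIB1 annotation as Vv16s0050g02220, measured 6.55 ± 0.59 and 80.3 ± 1.3 FPKM. The 2 CHIB1 rows differed in GAG-3309C, where Vv15s0046g01570 stood at 13.0 ± 1.0 FPKM, a log2 fold change of 0.98 (SE 0.09, adjusted p = 1.51e-06 by limma), and Vv16s0050g02220 at 42.5 ± 6.7 FPKM.

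Of the 14 annotated beta-1,3-glucanases that were not listed, 9 rose and 4 fell in GAG-41B (34.4% and 34.4% of all genes tested). For GAG-3309C the counts were 7 and 2 (22.0% and 21.1%), and for GAG-17-37 also 7 and 2 (18.6% and 15.6%). For GAG-KOB they were 5 and 2 (26.9% and 25.7%). All are limma calls against GAG-1103P, again for genes picked on these libraries. The medians were 1.15, 1.22, 1.02 and 0.65. The most abundant, Vv06s0061g00100, annotated as an acidic isoform, measured 737 ± 164 FPKM in GAG-3309C, 532 ± 80 in GAG-17-37, 331 ± 46 in GAG-KOB, 124 ± 13 in GAG-41B and 62.8 ± 6.8 in GAG-1103P. Vv06s0061g00120, close to it by identifier, had the same order. Vv01s0011g00570 and Vv19s0090g01070, both annotated as glucan endo-1,3-beta-glucosidase precursors, fell in GAG-41B by 2.03 (SE 0.12, adjusted p = 5.36e-09 by limma) and 4.13 (SE 0.12, adjusted p = 4.69e-12 by limma).

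GAG-41B and GAG-3309C were then compared directly for these unlisted genes. The study picked its genes by their change from GAG-1103P in these same libraries, most of them in GAG-41B. A difference of GAG-41B from GAG-3309C is thus partly fixed by that choice. The counts below are a description, and the shares of all genes are no fair background for them. Of the 11 chitinases, 10 were higher in GAG-41B and 0 lower by limma, with 0 lower at an unadjusted p under 0.05 too (31.7% and 31.4% of all genes tested), with a median of 1.54 on the log2 scale. Of the 14 glucanases, 4 were higher and 7 lower, with a median of −1.16, beside 0.00 over all genes tested. With libraries scaled to the same total the counts were 7 and 0 for the chitinases and 3 and 10 for the glucanases. This scaling also put the median of all genes tested at −0.46. It moved the genes called, in either direction, from 13478 to 14968 of 21364, and their shares by direction were not counted. Vv14s0081g00030, at 0.45 as deposited, was among the chitinases no longer called, at −0.04. Vv05s0094g00260 went from 0.27 to −0.20 without a call under either scaling. The difference between both families was not tested. The leaf markers PSAF and PsbO moved too, being higher in GAG-41B than in GAG-3309C by 1.41 and 0.69. With quantile normalization of the libraries PsbO was no longer called (adjusted p = 0.178 by limma). Of 15 genes annotated with senescence, 5 were higher and 6 lower, beside the same 31.7% and 31.4% of all genes. The part of the markers and of these 15 genes in the result was not tested.

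**Figure D4:**
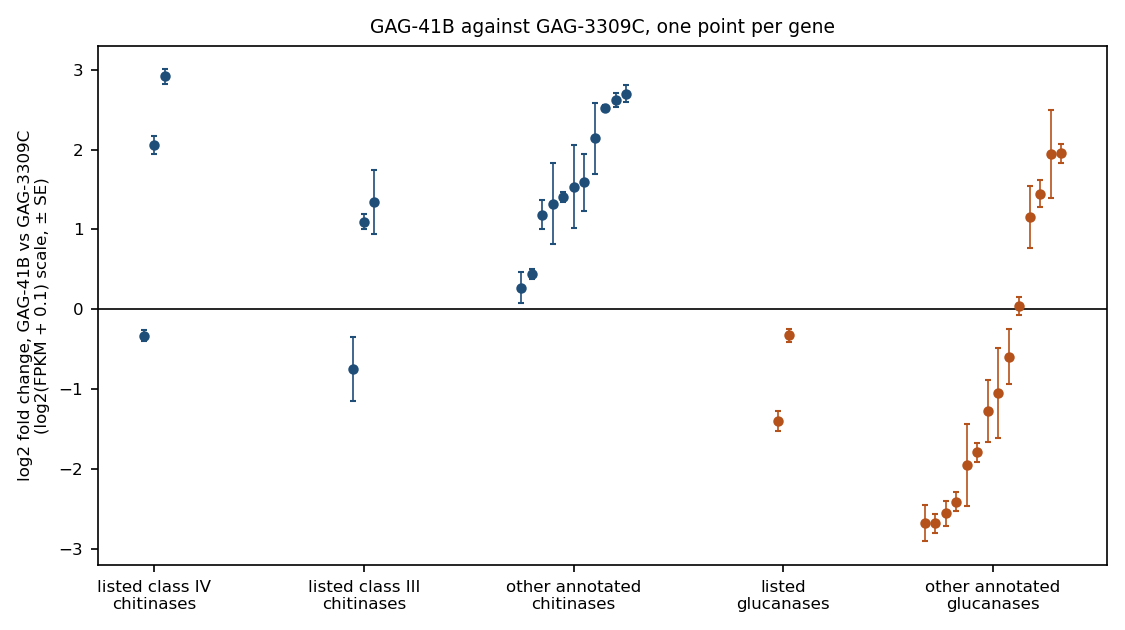
Log2 fold change of GAG-41B against GAG-3309C (log2(FPKM + 0.1) scale, bars ± SE), with 1 point per gene, for the listed genes that entered the fit and for the other annotated chitinases (blue) and beta-1,3-glucanases (orange). The 11 other chitinases lie between 0.27 and 2.70, and the 14 other glucanases between −2.68 and 1.96. The study picked its genes by their change from GAG-1103P in these libraries, most of them in GAG-41B, so that these differences are not independent of that choice.

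Likeness over the 15 libraries was measured as the Pearson correlation of log2(FPKM + 0.1) among the 17852 genes that averaged 1 FPKM or more, as a description, since the libraries fall into 5 combinations and share scaling. The genes most like Vv05s0094g00340 were Vv07s0031g00980 (r = 0.999), the listed glucanase Vv08s0007g06060 (r = 0.998) and Vv15s0048g00350 (r = 0.991), and the same 3 genes, with the chitinase in place of the glucanase, were the most alike for Vv08s0007g06060. Vv07s0031g00980, which has no annotation here, ranged from 38.8 ± 1.7 FPKM in GAG-1103P to 153 ± 9.6 in GAG-3309C. The genes most like Vv16s0050g02220 were Vv05s0077g00950 (r = 0.994), Vv04s0008g00370, annotated as a CLAVATA1 receptor kinase (r = 0.994), and Vv09s0070g00640, annotated as a disease resistance protein (r = 0.992). Between listed rows, r was 0.979 for Vv05s0094g00220 and Vv05s0094g00320, 0.719 for Vv05s0094g00220 and Vv05s0094g00340, and 0.159 for Vv05s0094g00220 and Vv08s0007g06040. Vv16s0050g02210 had a negative r with each of the other 7 rows that entered the fit, from −0.79 to −0.34.

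The spread between libraries of a combination differed between rows. For the 6 listed rows with at least 1 FPKM in every library, the coefficient of variation over 3 libraries was between 1.10% and 16.4%, with a median of 6.31%. Some differences were within the spread, since Vv05s0094g00220 and Vv08s0007g06040 overlapped between some combinations. The coefficient was larger for the low rows, at 29.7% to 52.9% for Vv16s0050g02210 and 28.6% to 104% for Vv16s0050g02230 where it was above 0. Library A was the highest of the 3 in all 5 combinations for Vv05s0094g00340, Vv08s0007g06040 and Vv08s0007g06060, as it was for 13.0% of the genes tested, against 0.908% for library B and 0.683% for library C. What sets libraries A apart was not tested. In a fit of libraries B and C only, chosen after seeing the data, these 3 rows were lower in GAG-41B than in GAG-3309C by −0.33, −1.44 and −0.32 on the log2 scale, and the number of listed rows without overlap from GAG-1103P was unchanged in each of the 4 comparisons. The libraries of a combination came from different plants of one block, so the SE and the p-values measure the spread between such pools. The expression table holds no depth, and the mapped reads that the study lists per library were not used for the steps given next. In that list, library C of GAG-17-37 had the fewest mapped reads. Libraries B and C of GAG-41B lay within the range of the other combinations. Set against library B of GAG-KOB, the FPKM worth of 1 read was 1.49 and 1.45 times as large in libraries B and C of GAG-41B and 1.48 times in library C of GAG-17-37, and at most 1.15 times in the other libraries B and C. This step reflects both sequencing depth and the scaling of the libraries, and its part in the differences of GAG-41B was not tested.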

How the data were processed

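RNA-Seq of “Gaglioppo” leaves from 5 graft combinations gave 15 libraries. According to the methods, the authors aligned single-end reads with TopHat2 2.0.14 and Bowtie2 2.2.4 to the PN40024 genome and calculated the deposited FPKM values with Cufflinks 2.2.0 and a geometric normalization. All 15 columns were matched to libraries by name. FPKM values are not counts, so log2(FPKM + 0.1) was analyzed with limma 3.58.1 in R 4.3.3, in one fit over all libraries with a variance trend, for the 21364 genes that averaged 0.1 FPKM or more. Tests were two-sided with Benjamini-Hochberg adjustment over all genes tested. Coefficients, steps and plots used Python 3.11.15, numpy 2.4.6, pandas 2.3.3 and matplotlib 3.10.9. The scripts were tested on simulated data.

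The members and lists were chosen with earlier results of these data known. The text names all listed rows, the annotated chitinases and glucanases within the identifier ranges given for the 3 loci, the 4 most abundant other annotated members of each family, and the 3 genes most like the most abundant row of each group. Vv05s0094g00300 was added after its values were seen. The rule also asked for genes like the row with the lowest mean, Vv05s0094g00330, which was not tested. Annotations come from a table of genes that the study had picked on these libraries. Of the identifiers, 0 matched the reference table at hand (ASM3070453v1), so no coordinates or sequences are given. The step of 1 read was found, for libraries B and C, from the most frequent ratio of low FPKM values between libraries, and values within 0.05 of a whole multiple were taken as whole. Values in libraries A were not read this way. Replicates are pools of plants named by letter only. Alternatives were other pseudocounts, filters, scalings and fits, the letter as a block, leaving out each library and, chosen after seeing the data, libraries B and C only.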

Additional observations from a re-analysis of the deposited data

How the results depend on the processing

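The log2 fold changes of the listed rows against GAG-1103P and between GAG-41B and GAG-3309C gave 480 values under the alternatives, of which 0 changed sign where libraries did not overlap, 426 moved by less than the spread between libraries and 54 by more. The 426 include all values from leaving out a library. They also include those with the letter as a block, which cannot change a fold change where every combination has each letter. All 54 thus came from the other alternatives. The same total in every library moved the median of all genes by −0.38 in GAG-41B against GAG-1103P, and the low rows moved most with pseudocounts of 0.01 and 1. Counts of listed rows without overlap and of neighbouring rows called stayed within 1.5 times. Over the alternatives, the other chitinases called between GAG-41B and GAG-3309C numbered 7 to 10 higher and 0 lower, and the other glucanases 2 to 5 higher and 6 to 10 lower; the call of Vv08s0007g06010 there was lost without library A of GAG-3309C and with libraries B and C only (adjusted p up to 0.0796 by limma). The genes called between GAG-3309C and GAG-17-37, 3610, became 1826 with the libraries of both combinations only and 5710 with the replicate letter as a block, and no other count of calls moved by over 1.5 times. The block raised the number of calls in 10 of 10 comparisons, and libraries B and C only, a setting chosen after seeing the data, did so too. The letters were not taken to pair the libraries, since not every pair of the same letter correlated above 0.1: deviations of libraries with the same letter correlated from −0.03 to 0.20 for A, −0.09 to 0.06 for B and −0.05 to 0.04 for C. For letter A, 4 of the 10 pairs were above 0.1, and a library matched its own letter best in 7 of 10 pairs for A, 2 for B and 0 for C. Vv16s0050g02210 and Vv16s0050g02230 are limited by depth, at 21 reads or fewer and 6 or fewer in libraries B and C, so small differences in them were not detectable.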
